A study of Mus musculus with 53 samples.

Results

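The proteasome is the protease that degrades most ubiquitin-tagged proteins in the cytosol and nucleus of animal cells. A barrel-shaped core of alpha and beta rings holds the proteolytic sites, and a regulatory cap of ATPases and other subunits binds, unfolds and feeds in the substrates. In interferon-treated and immune cells 3 of the beta subunits can be replaced by Psmb8, Psmb9 and Psmb10, and the core is then called the immunoproteasome, which is known for making peptides for antigen presentation. The genes described here are those with an annotated symbol that starts with Psma, Psmb, Psmc, Psmd or Psme and goes on with a number. They are 42 of the 8251 genes with a probe set of their own on the array, and where a gene had several probe sets, the brightest on average stood for it.

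The members fell into 14 constitutive core genes (7 of the alpha ring and 7 of the beta ring), 3 immunoproteasome genes and 20 genes of the regulatory cap (6 ATPases, 11 other subunits and 3 assembly chaperones). A further 3 were other activators of the core (Psme1, Psme3, Psme4). The symbols of the remaining 2, Psmc3ip and Psme3ip1, mark partners of such genes and not subunits. Psme2 was not analysed, since its 2 probe sets also name Psme2b. Of the 42 members, 38 were bright enough to be tested, among them all 14 core genes, 19 of the cap and, of the immunoproteasome, only Psmb10.

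All samples were NIH-3T3 cells, a fibroblast line that grew out of mouse embryo cultures, transduced with a vector for PPARg2, the isoform of the nuclear receptor Pparg found mainly in fat cells, with a vector for EBF1, a transcription factor known from B lymphocytes and fat cells, or with the empty vector. Day 0 was before the hormones that start fat cell differentiation, and the cultures of days 2, 4 and 10 had been given them. Total RNA of days 0, 2, 4 and 10 (d0, d2, d4, d10) was put on Affymetrix MG_U74Av2 arrays, 53 in all. Comparisons with d0 thus hold hormone treatment and time together. PPARg, EBF1 and vector cells had 4 arrays each at d0 and at d2 and 7 each at d4, and at d10 there were 3 PPARg, 2 EBF1 and 3 vector arrays. The labels speak of independent stimulations without tying arrays to cultures, so p-values measure the spread between arrays, which may be technical, and the number of arrays, smallest at d10, limits the precision. By the dates in the array experiment files, the arrays were sorted into 3 sessions: d0 and d2 in sessions 1 and 2, d10 in session 3, and d4 in all of them. As d0 and d10 share no session, day and session cannot be told apart between them.

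The probe set of Pparg read 58.3 to 89.3 on the 4 PPARg arrays of d0. It did not exceed the floor (54.5) on any of the 4 vector arrays of that day. With values floored it did not pass in limma for PPARg against vector at d0 (0.32, adjusted p = 0.479) or at d2 (adjusted p = 0.305). It passed at d4 (1.33) and d10 (1.86), but it also passed for EBF1 against vector on those days (1.26 and 2.01). At d4 and d10 it thus did not tell the PPARg label from the EBF1 label. The probe set of Ebf1 read 176 to 390 in EBF1 cells at d0, against 197 to 288 in vector cells, and passed no test of EBF1 against vector, so it gave no check of the EBF1 label. The stretch of transcript it reads is not known here. The summed intensity of 13 adipocyte marker genes was 30606 to 33802 in PPARg and 33754 to 42948 in EBF1 cells at d10, against 6061 to 9153 in vector cells. Of 9 leukocyte genes, only Ptprc, the pan-leukocyte surface marker, was at the floor on all 53 arrays, and 6 were bright enough to be tested. The leukocyte sums at d10 were 1188 to 1441 in PPARg and 1285 to 1339 in EBF1 cells, against 1187 to 1422 in vector cells. In such bulk RNA, fewer cells of a type and less RNA per cell cannot be told apart. Array medians ran from 143 to 168.

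On d4 some of the constitutive proteasome genes rose with both inserts over the empty vector, 5 of 14 core genes with PPARg and 9 of 14 with EBF1. Of the 38 tested members, 9 rose in PPARg cells and 14 rose in EBF1 cells, and none fell in either (limma, adjusted p under 0.05). The rises made 23.7% and 36.8% of the members; over all 5761 genes tested, 5.95% rose and 1.98% fell in PPARg cells, and 11.4% rose and 8.16% fell in EBF1 cells. The median log2 fold of the members was 0.25 for PPARg and 0.22 for EBF1, against -0.02 and 0.04 over all genes, and 36 of the 38 had a positive fold in each. Both comparisons use the same vector arrays, so they are not independent of each other.

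**Figure D1:**
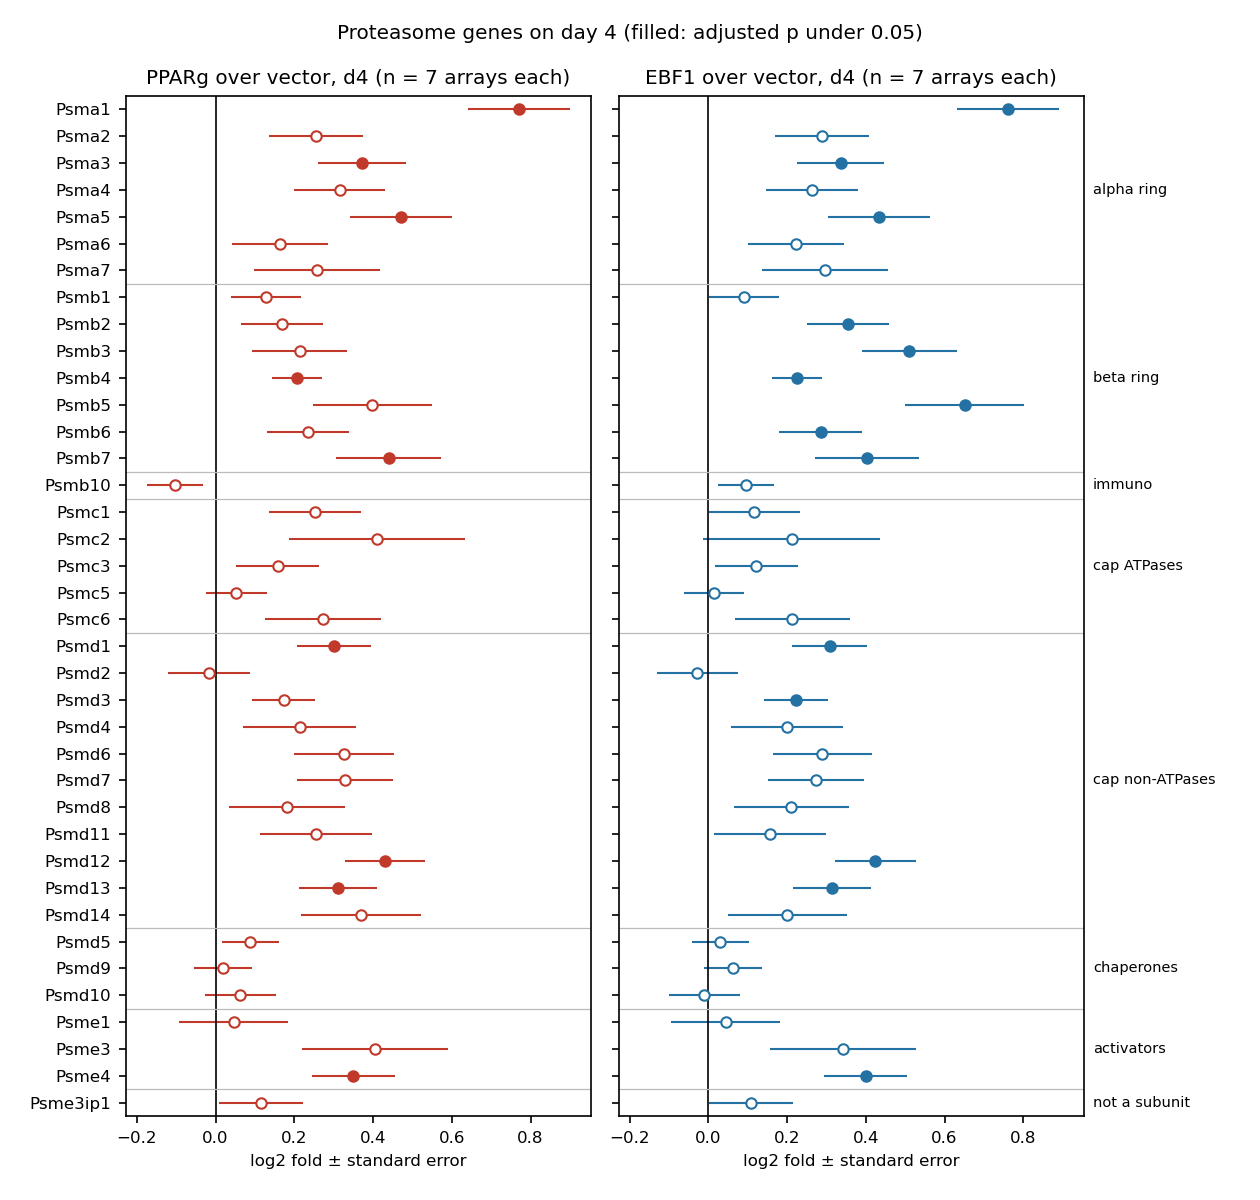
log2 folds (horizontal axis, with the standard error of the fit) of the 38 tested members on d4, PPARg over vector on the left and EBF1 over vector on the right, grouped by class, with filled points for adjusted p under 0.05. Psma1 lies farthest to the right in both panels (0.77 and 0.76), and the 3 chaperones lie near 0.

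Psma1, an alpha ring subunit, had the largest fold. Its intensity ran from 486 through a median of 571 to 718 in PPARg cells and from 464 through 576 to 663 in EBF1 cells at d4, against 278 through 351 to 389 in vector cells. Every array with an insert lay above every vector array. The log2 fold was 0.77 ± 0.13 for PPARg (SE; limma, adjusted p = 4.56e-05) and 0.76 ± 0.13 for EBF1 (adjusted p = 1.41e-05). Within sessions 1, 2 and 3 it was 0.55, 0.81 and 0.89 for PPARg and 0.81, 0.82 and 0.69 for EBF1, so it was positive in each.

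In the alpha ring Psma3 and Psma5 rose as well with both inserts. Psma5 read 1570 to 2302 in PPARg cells (median 2062) and 1549 to 2370 in EBF1 cells (median 1996), against 1192 to 1754 in vector cells (median 1420). The ranges overlapped, and the folds were 0.47 ± 0.13 (adjusted p = 0.0154) and 0.43 ± 0.13 (adjusted p = 0.0122). The 7 alpha genes had folds of 0.16 to 0.77 for PPARg and 0.22 to 0.76 for EBF1, and 3 of them passed in each.

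The beta ring holds the 3 constitutive catalytic subunits: Psmb5 (chymotrypsin-like activity), Psmb6 (caspase-like) and Psmb7 (trypsin-like). Psmb5 read 448 to 645 in PPARg cells (median 517) and 485 to 765 in EBF1 cells (median 693), against 293 to 519 in vector cells (median 391). It rose in EBF1 cells (0.65 ± 0.15, adjusted p = 0.00101), while its fold of 0.40 with PPARg did not pass. A second probe set of Psmb5 did not follow, with 0.14 for EBF1 (adjusted p = 0.585), so the gene is uncertain.

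Psmb7 read 1285 to 1989 in PPARg cells (median 1697) and 1059 to 2361 in EBF1 cells (median 1633), against 1099 to 1483 in vector cells (median 1193). It rose with both, by 0.44 ± 0.13 (adjusted p = 0.0296) and 0.40 ± 0.13 (adjusted p = 0.025), although the groups overlapped. Psmb6 read 914 to 1194 in PPARg cells (median 1112) and 854 to 1383 in EBF1 cells (median 1152), against 758 to 1012 in vector cells (median 944). It passed with EBF1 (0.29 ± 0.10, adjusted p = 0.0481), close to the threshold.

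Among the structural beta subunits Psmb3 had the largest fold with EBF1. It read 1531 to 2154 in PPARg cells (median 2025) and 1718 to 2872 in EBF1 cells (median 2392), against 1318 to 1957 in vector cells (median 1743). The ranges overlapped; the rise was 0.51 ± 0.12 in EBF1 cells (adjusted p = 0.00121), and the fold of 0.21 in PPARg cells did not pass. In all, 6 of the 7 beta genes passed with EBF1 and 2, Psmb4 and Psmb7, with PPARg.

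Of the 19 tested genes of the cap, 3 rose with PPARg (Psmd1, Psmd12, Psmd13) and 4 with EBF1 (these and Psmd3), all of them non-ATPase subunits. Psmd12, a subunit of the lid, had folds of 0.43 ± 0.10 with PPARg (adjusted p = 0.00417) and 0.42 ± 0.10 with EBF1 (adjusted p = 0.00154). None of the 5 tested ATPases, the ring that unfolds substrates, passed, with folds of 0.05 to 0.41 for PPARg and 0.02 to 0.21 for EBF1, and neither did any of the 3 chaperones that help to assemble that ring (Psmd5, Psmd9, Psmd10; -0.01 to 0.09). The median fold was 0.26 for the core and 0.25 for the cap with PPARg, and 0.32 and 0.20 with EBF1; the difference between the classes was not tested.

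Of the activators, which open the core in place of the cap, Psme4 rose with both inserts. It read 275 to 424 in PPARg cells (median 340) and 291 to 416 in EBF1 cells (median 365), against 232 to 336 in vector cells (median 247). The ranges overlapped, and the folds were 0.35 ± 0.11 (adjusted p = 0.0302) and 0.40 ± 0.11 (adjusted p = 0.00414). In session 1 the PPARg arrays read 300 and 275, between the vector readings of 245 and 322. In sessions 2 and 3 every PPARg array lay above the vector arrays of its session.

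The same 9 genes passed with PPARg and with EBF1 on d4: Psma1, Psma3, Psma5, Psmb4, Psmb7, Psmd1, Psmd12, Psmd13 and Psme4. Psmb4 has 3 probe sets, and only the brightest could be tested. Psmb2, Psmb3, Psmb5, Psmb6 and Psmd3 passed with EBF1 alone. A difference between the inserts was not called for any member: of EBF1 against PPARg on d4, 0 of 38 passed in limma (2 at an unadjusted p under 0.05), where 2% of all genes were higher and 4.17% lower in EBF1 cells. For Psmb5, the EBF1 to PPARg fold was 0.25 ± 0.15.

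The size of the shift differed between sessions. In sessions 1, 2 and 3 alone the EBF1 folds were 0.71, 0.63 and 0.63 for Psmb5, 0.70, 0.62 and 0.31 for Psmb3 and 0.80, 0.40 and 0.13 for Psmb7, and the PPARg folds of Psmb7 were 0.64, 0.44 and 0.31. All were positive, and most were smallest in session 3. The members' median fold for PPARg was 0.37, 0.22 and 0.20 in sessions 1, 2 and 3 alone, with 3, 0 and 2 calls. For EBF1 it was 0.51, 0.29 and 0.07, with 18, 0 and 2 calls. Sessions 1 and 2 hold 2 arrays a group and session 3 holds 3, and the EBF1 median in session 3 was close to the 0.04 of all genes. With session as a block, 14 members passed for PPARg. The PPARg count also fell to 3 without vector replicate 1 or 4 or PPARg replicate 7, to 4 without PPARg replicate 5 and to 5 without vector replicate 6 or PPARg replicate 1 or 2, and the EBF1 count fell to 9 without EBF1 replicate 2.

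Markers of other kinds moved with these genes on d4. The summed adipocyte markers were at 19610 to 22596 in PPARg and 15617 to 24204 in EBF1 cells, against 12894 to 16812 in vector cells. Of 13 fibroblast genes, 5 were lower with PPARg, and 9 were lower and 1 higher with EBF1, with sums of 22181 to 24796 in PPARg and 20949 to 24407 in EBF1 cells, against 24215 to 34073 in vector cells. Of 19 genes of dividing cells, 0 passed with PPARg in limma, and 6 were higher and 1 lower with EBF1, with sums of 5502 to 6449 in PPARg and 5910 to 6553 in EBF1 cells, against 4867 to 6025 in vector cells. The part of these markers in the result was not tested.

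**Figure D2:**
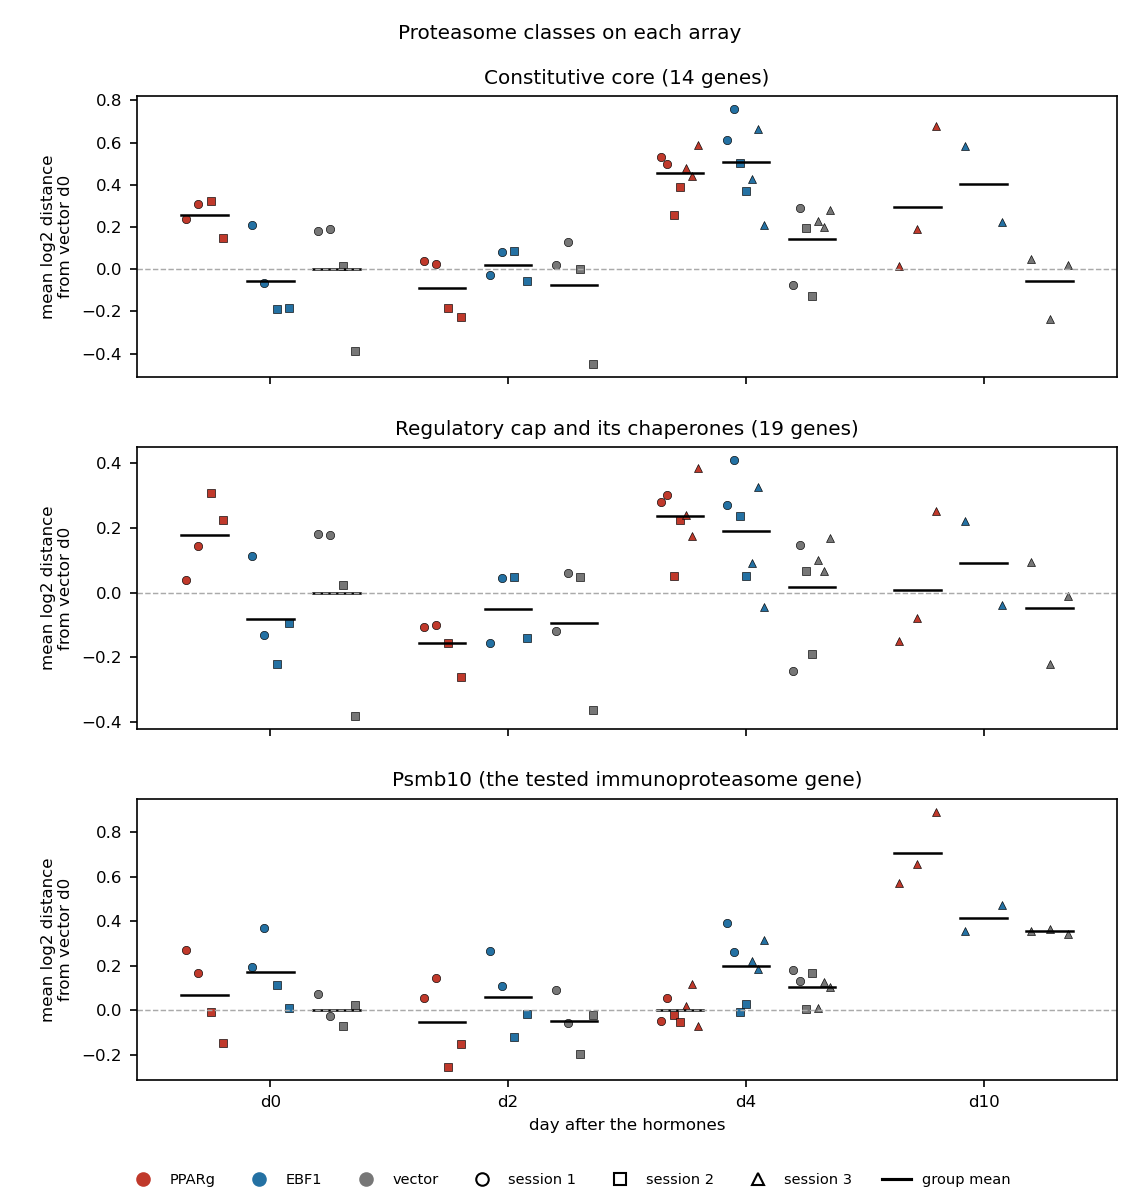
Mean log2 distance from the vector arrays of d0 (vertical axis, a scale of its own in each panel) on each array, by day and insert, for the 14 core genes, the 19 tested cap genes and Psmb10, with bars for group means and marker shapes for sessions. The core means of PPARg and EBF1 arrays at d4 average 0.46 and 0.51, against 0.14 on vector arrays, and Psmb10 is highest on the PPARg arrays of d10.

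The promoters of Psma1, Psmb5 and Psmb3 are shown, the members with the largest folds of EBF1 over vector at d4; with PPARg only Psma1 of these passed, and Psmb5 rests on 1 of its 2 probe sets. They are the 150 bases before the annotated start of transcription in RefSeq (build GRCm38.p6), 5′ to 3′ on the gene's strand. Capitals mark matches on either strand to CCAAT, a box bound by NF-Y, and, in Psmb5, to TGACNNNGC, the core of the antioxidant response element bound by Nfe2l1 and Nfe2l2, which are known to drive proteasome genes. Psma1 lies at chr7:114276117-114276266 on the minus strand, Psmb3 at chr11:97703284-97703433 on the plus strand and Psmb5 at chr14:54617996-54618145 on the minus strand.
Psma1: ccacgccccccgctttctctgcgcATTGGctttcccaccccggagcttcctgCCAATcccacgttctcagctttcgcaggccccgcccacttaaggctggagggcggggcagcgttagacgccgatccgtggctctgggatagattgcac
Psmb3: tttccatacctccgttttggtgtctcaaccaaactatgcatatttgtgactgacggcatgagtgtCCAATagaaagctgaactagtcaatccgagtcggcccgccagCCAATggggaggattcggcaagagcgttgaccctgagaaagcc
Psmb5: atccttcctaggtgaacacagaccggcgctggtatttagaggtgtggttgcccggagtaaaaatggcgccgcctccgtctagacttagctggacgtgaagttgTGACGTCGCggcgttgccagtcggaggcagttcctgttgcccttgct

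Windows from 250 bases before to 50 after the start were found for 36 of the 42 members. CCAAT stood in 38.5% of the members' 39 windows, against 37.4% of all 32851 windows in the RefSeq table. TGACNNNGC stood in 15.4% of the members' windows (Psmb5, Psmb6, Psmc6, Psmd9, Psmd12, Psme4), against 12.4% of all. A match is a description of the letters and shows no binding.

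By d10 fewer members passed. PPARg cells had 6 members higher and 0 lower than vector cells, where 9.6% of all genes were higher and 14.5% lower, and EBF1 cells had 5 higher and 0 lower, where 10.6% were higher and 7.9% lower. The rises made 15.8% and 13.2% of the members, not far from these shares. The median fold was 0.25 for the core and 0.08 for the cap with PPARg, and 0.31 and 0.16 with EBF1, against -0.01 and -0.02 over all genes.

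Psma1 again led. Its intensity at d10 was 449, 569 and 549 in PPARg cells and 647 and 559 in EBF1 cells, against 199, 236 and 216 in vector cells. Arrays with an insert thus read more than any vector array, with log2 folds of 1.26 ± 0.20 (adjusted p = 1.98e-06) and 1.47 ± 0.22 (adjusted p = 9.95e-07). Psmb3 passed with both inserts too, with 1579, 1723 and 2300 in PPARg cells and 2375 and 1736 in EBF1 cells, against 1017, 979 and 1232 in vector cells. These groups did not overlap either, and the folds were 0.78 ± 0.18 (adjusted p = 0.000901) and 0.92 ± 0.21 (adjusted p = 0.000633).

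Psmb7 passed with both inserts as well, at 0.54 ± 0.20 for PPARg (adjusted p = 0.0431) and 0.74 ± 0.23 for EBF1 (adjusted p = 0.0149). It read 1180, 1350 and 1997 in PPARg cells, against 1208, 796 and 1066 in vector cells, so these ranges overlapped. The EBF1 arrays, at 2049 and 1387, lay above all vector arrays. Psmb5 was 812 and 603 in EBF1 cells, against 450, 311 and 353 in vector cells. It rose by 0.93 ± 0.26 (adjusted p = 0.00643), but its second probe set read -0.04 (adjusted p = 0.966). Psme4 was 504 and 438 in EBF1 cells, against 274, 249 and 309 in vector cells, a rise of 0.77 ± 0.18 (adjusted p = 0.00128). Psma5, Psmd13 and Psmb10 passed with PPARg, at 0.57, 0.44 and 0.35. EBF1 against PPARg gave 0 of 38 in limma (3 at an unadjusted p under 0.05), with 0.92% of all genes higher and 0.312% lower in EBF1 cells.

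Leaving out single arrays moved these counts. Without EBF1 replicate 1, 1 member passed for EBF1 at d10, where the 1 array left is assumed to vary like the other groups, and without PPARg replicate 3 or vector replicate 2 the PPARg count was 2 or 3. On d0, 0 of 38 members passed for PPARg (6 at an unadjusted p under 0.05; background 2.24% higher and 1.53% lower) and 0 for EBF1 (0 unadjusted; 0.382% and 0.451%). On d2 it was again 0 for PPARg (0 unadjusted; 0.174% and 0.469%) and 0 for EBF1 (0 unadjusted; 0.885% and 0.677%), and 0 for EBF1 against PPARg (2 unadjusted; 3.85% and 1.49%).

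The d0 folds of PPARg were nonetheless mostly positive, 33 of 38 with a median of 0.20, against 0.06 over all genes. The median was -0.02 in session 1 and 0.45 in session 2, so it was positive in session 2 only. Vector replicate 4, an array of session 2, had a mean log2 distance from the vector mean of -0.39 for the core and -0.38 for the cap. The other vector arrays stood at 0.18, 0.19 and 0.02 for the core and 0.18, 0.18 and 0.02 for the cap. The part of this low array in the positive folds was not tested. The chaperone Psmd5 was lower in EBF1 than in PPARg cells (-0.38 ± 0.10, adjusted p = 0.00927), the only one of 38 to pass, with 2.43% of all genes higher and 3.92% lower. In that comparison 34 of 38 members had a negative fold, with a median of -0.27 against 0.00 over all genes, and 13 were at an unadjusted p under 0.05. With session or replicate number as a block 6 passed, and within sessions 1 and 2 alone the median was -0.09 and -0.43, with 1 and 0 calls. Without PPARg replicate 3, 0 passed in limma. The PPARg cells of d0 also had 15 of 19 tested genes of dividing cells higher than vector cells, with a summed intensity of 9655 to 10202 against 6117 to 7249, and 15 of 19 were lower in EBF1 than in PPARg cells, with 6188 to 7687 in EBF1 cells. Their part in the result was not tested.

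Whether the effect of an insert grew between d0 and d10 was tested directly. For EBF1 the d10 effect exceeded the d0 effect for 5 of 38 members, by 1.42 ± 0.28 for Psma1 (adjusted p = 0.000175), 1.00 for Psmb3, 1.00 for Psmb5, 0.85 for Psmb7 and 0.72 for Psme4, where 8.45% of all genes were higher and 4.43% lower. The second probe set of Psmb5 read -0.14 in this test (adjusted p = 0.902), so Psmb5 is uncertain here. For PPARg the d10 effect exceeded the d0 effect for Psma1 alone, by 0.78 ± 0.26 (adjusted p = 0.0405), where 5.28% were higher and 7.2% lower. This call for Psma1 was lost when any of 7 arrays was left out, and the EBF1 count fell to 1 without EBF1 replicate 1 of d10, again with 1 array left in that group.

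Over the days within 1 insert, d4 and d10 were compared with d0 in all insert groups and d2 in vector cells; whether the change from d0 to d4 differed between inserts was not tested. At d4 against d0, 21 of 38 members rose and 2 fell in EBF1 cells, where 16.8% of all genes rose and 17.1% fell. All 7 alpha ring genes rose (0.36 to 1.43), with 4 of the 7 beta ring genes and 8 of the 19 cap genes. The median fold was 0.49 for the core and 0.37 for the cap, against -0.03 over all genes. Within session 1 alone 20 rose and 1 fell, and within session 2 alone 12 rose, with medians of 0.46 and 0.40. Beside these, 10 of 13 fibroblast genes fell and 1 rose in EBF1 cells, and 9 of 13 adipocyte genes rose and 0 fell. Of the fibroblast genes, 7 fell and 1 rose in vector cells, and 7 fell and 4 rose in PPARg cells. Of the adipocyte genes, 9 rose and 1 fell in vector cells, and 9 rose and 0 fell in PPARg cells. The part of these markers in the result was not tested.

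Psma1 went furthest in this comparison. It read 464 to 663 in EBF1 cells at d4 (median 576), against 227, 268, 206 and 157 at d0, a rise of 1.43 ± 0.15 (adjusted p = 7.52e-11) with no overlap. Psmb3 read 1718 to 2872 at d4 (median 2392), against 1202, 869, 1019 and 1247 at d0, a rise of 1.14 ± 0.14 (adjusted p = 3.68e-09), also without overlap. Within sessions 1 and 2 alone the folds were 1.42 and 1.46 for Psma1 and 1.36 and 1.06 for Psmb3. Psmd6, a lid subunit, rose by 0.79 ± 0.15 in EBF1 and 0.54 ± 0.15 in PPARg cells.

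In PPARg cells 6 members rose and 4 fell at d4 against d0 (15% and 18.4% of all genes), and in vector cells 3 rose and 3 fell (11.7% and 13.3%). Psma1 rose in both, by 1.01 ± 0.15 and 0.72 ± 0.15. Psmb3 rose in both too, by 0.48 ± 0.14 in PPARg cells (limma, adjusted p = 0.00676) and 0.55 ± 0.14 in vector cells (adjusted p = 0.00224). The members' median in vector cells was -0.18 in session 1 and 0.14 in session 2, and in PPARg cells 0.16 and -0.03, so no direction held across sessions. For PPARg the count of 10 fell to 5 without PPARg replicate 4 of d0.

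At d10 against d0, 7 members rose and 1 fell in EBF1 cells (14.6% and 13.4% of all genes), 2 rose and 3 fell in PPARg cells (13.5% and 19.5%) and 1 rose and 1 fell in vector cells (9.3% and 6.16%). The EBF1 rises were led by Psma1 (1.51 ± 0.21), Psmb5 (0.96 ± 0.24) and Psmb3 (0.92 ± 0.19), and the count of 8 fell to 3 without EBF1 replicate 1 of d10, which leaves 1 array there. The second probe set of Psmb5 read 0.14 in EBF1 cells (adjusted p = 0.718), so the rise of Psmb5 is uncertain. Psma1 rose in PPARg cells as well (0.87 ± 0.19). The cap ATPase Psmc3 fell in PPARg cells by 0.55 ± 0.15 (adjusted p = 0.00327). Its 2 other probe sets read -0.18 (adjusted p = 0.36) and -0.25 (adjusted p = 0.258), so that fall is uncertain. The chaperone Psmd9 fell in PPARg, EBF1 and vector cells, with -0.36, -0.43 and -0.35, but with session as a block none of these passed (adjusted p = 0.272, 0.146 and 0.467).

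**Figure D3:**
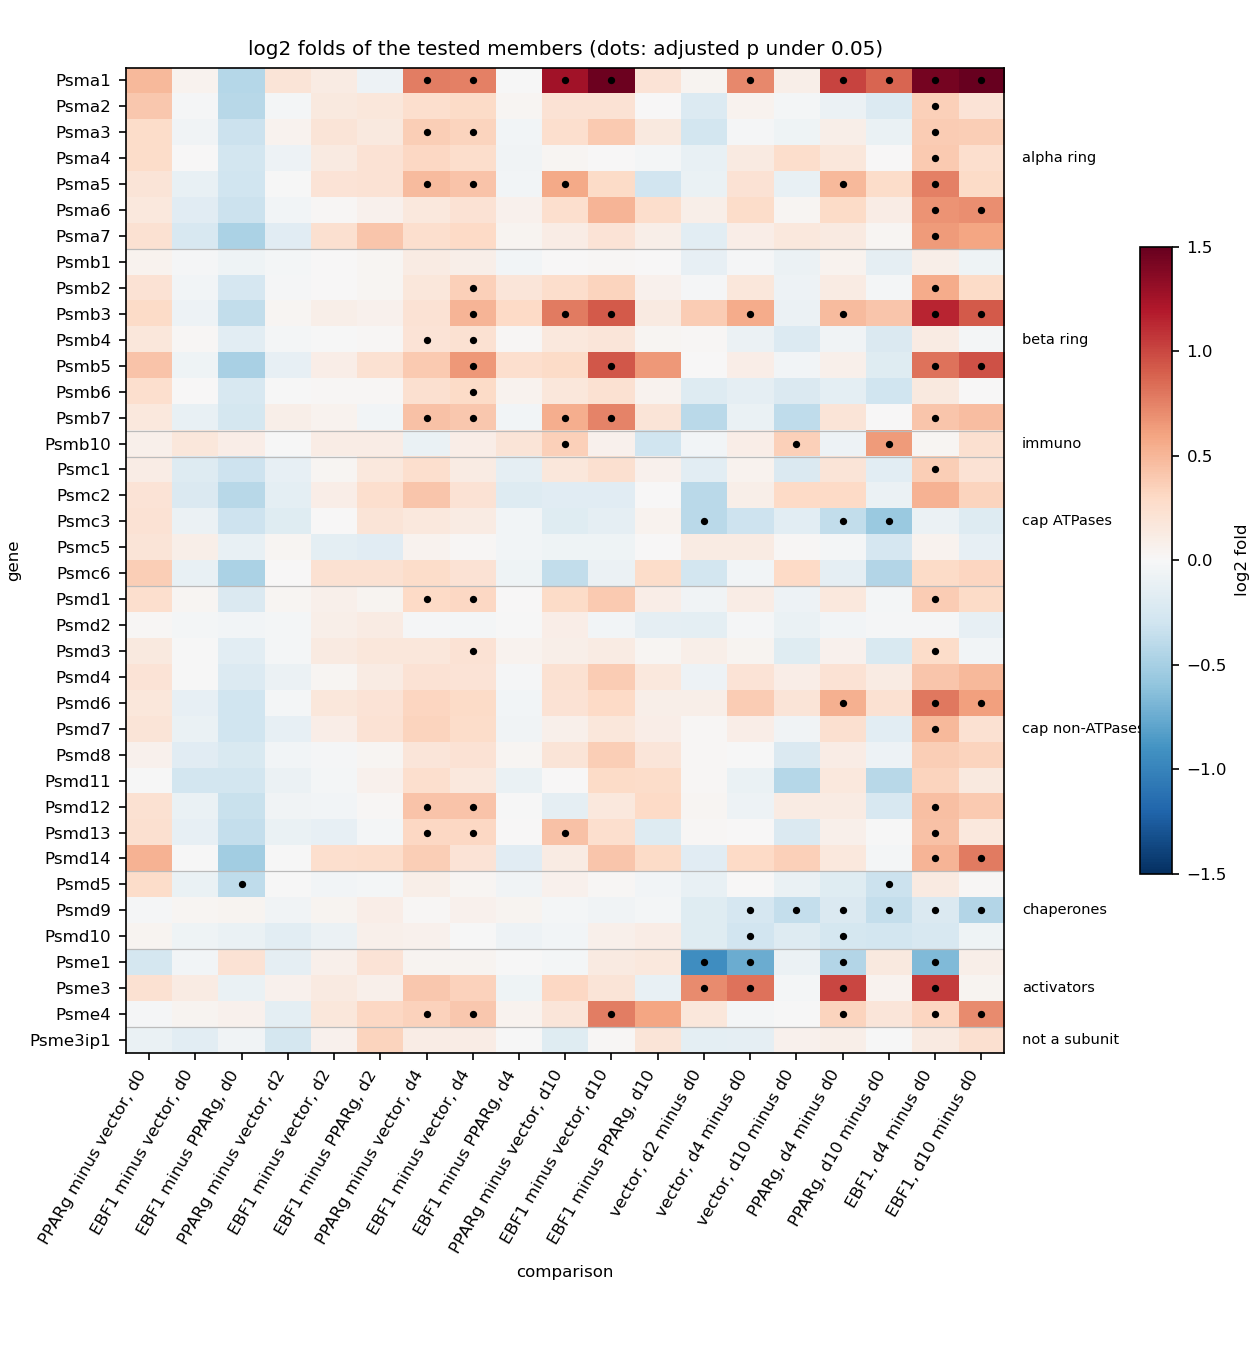
log2 folds (colour, blue lower and red higher, cut at 1.5) of the 38 tested members in the 19 comparisons between groups, with dots for adjusted p under 0.05. The column of EBF1 at d4 minus d0 holds 23 dots, and the columns of both inserts against vector at d2 hold none.

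The activators moved in opposite directions on the way. Psme1, a subunit of the interferon-inducible 11S activator, and Psme3, which forms the nuclear one, were followed in vector cells over the 4 days. Psme1 read 448, 446, 412 and 241 at d0, 210, 261, 220 and 126 at d2, 158 to 297 (median 231) at d4 and 354, 311 and 404 at d10. It was thus low at d2 and d4 and back in the d0 range at d10.

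In vector cells the fall of Psme1 was -0.93 ± 0.18 at d2 (adjusted p = 9.72e-05) and -0.75 ± 0.16 at d4 (adjusted p = 0.000337), and at d10 the fold was -0.08. The d4 fall was also called in PPARg (-0.44) and EBF1 (-0.66) cells, and within sessions 1 and 2 alone the d2 fold in vector cells was -0.93 and -0.92. Psme1 did not pass between inserts on any day.

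Psme3 ran the other way in vector cells. It read 295, 269, 342 and 264 at d0, 424, 446, 693 and 390 at d2, 343 to 894 (median 549) at d4 and 321, 269 and 266 at d10. All arrays of d2 and d4 lay above all arrays of d0, and the d10 range overlapped that of d0. The rise was 0.71 ± 0.25 at d2 (adjusted p = 0.0313) and 0.82 ± 0.22 at d4 (adjusted p = 0.00338), and at d4 it was 1.00 in PPARg and 1.04 in EBF1 cells.

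At d4 the arrays of session 3 read lower for Psme3 than those of sessions 1 and 2 in all 3 insert groups. Within sessions 1 and 2 alone the vector fold at d4 was 1.07 and 1.31. At d2 against d0 in vector cells 1 member rose and 2 fell (Psme3; Psme1 and Psmc3), where 9.43% of all genes rose and 12.8% fell; of the 2 other probe sets of Psmc3, 1 did not pass (-0.27, adjusted p = 0.156). The count of 3 was 1 without vector replicate 1 or 2 of d0 and 5 without its replicate 4.

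**Figure D4:**
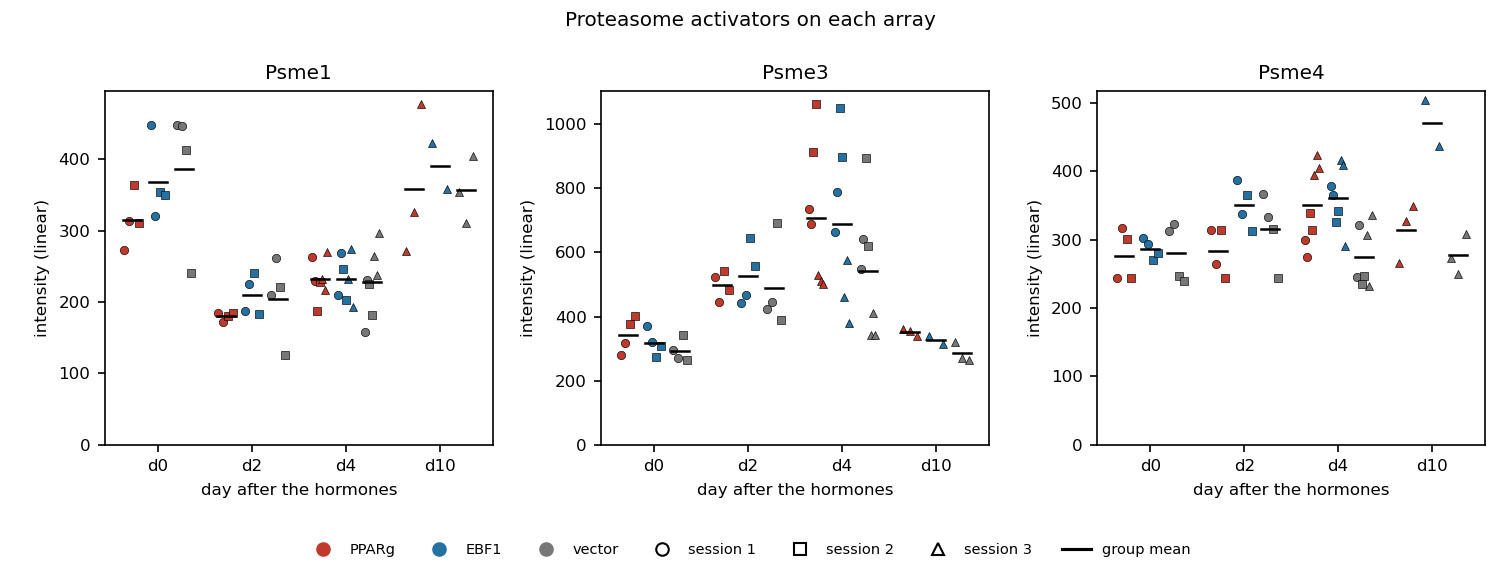
Linear intensity (vertical axis) of Psme1, Psme3 and Psme4 on each array by day and insert, with bars for group means and marker shapes for sessions. The group means of Psme1 are low and those of Psme3 high at d2 and d4 with every insert, and Psme4 is highest on both EBF1 arrays of d10.

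No immunoproteasome gene was called against vector at d4. Psmb8, the counterpart of Psmb5, read 67.8 to 108 over the 53 arrays (median 88.1), and Psmb9, the counterpart of Psmb6, 76.0 to 140 (median 101). Both were above the floor on all arrays and above the filter on none, so they were not tested in the fit, and their readings lie close to the floor. Psmb8 at d4 was 67.8 to 95.2 in PPARg cells and 75.8 to 96.9 in EBF1 cells, against 74.8 to 102 in vector cells, and all 3 ranges overlapped.

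Psmb9 at d10 was 104, 115 and 122 in PPARg cells and 108 and 133 in EBF1 cells, against 101, 118 and 140 in vector cells. The inserts overlapped with vector throughout. Fitted without the filter, Psmb9 was higher in vector cells at d2 (0.41 ± 0.09, adjusted p = 0.000849) and at d10 (0.51 ± 0.10, adjusted p = 0.000206) than at d0, higher in PPARg cells at d10 than at d0 (0.47) and higher in EBF1 than in PPARg cells at d4 (0.27), while Psmb8 passed in limma in 0 of the 21 comparisons (0 at an unadjusted p under 0.05).

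Psmb10, the counterpart of Psmb7, was bright enough to test. At d4 it was 324 to 370 in PPARg cells (median 336) and 338 to 446 in EBF1 cells (median 396), against 342 to 386 in vector cells (median 371). The ranges overlapped, and the folds of -0.10 ± 0.07 and 0.10 ± 0.07 did not pass.

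At d10 Psmb10 was 506, 536 and 631 in PPARg cells and 435 and 472 in EBF1 cells, against 436, 438 and 431 in vector cells. All PPARg arrays lay above all vector arrays, with a fold of 0.35 ± 0.11 (adjusted p = 0.0123), and the EBF1 fold of 0.06 did not pass. Vector cells themselves stood higher at d10 than at d0, where they read 358, 334, 324 and 346, by 0.35 ± 0.10 (adjusted p = 0.0108), and PPARg cells by 0.64 ± 0.10 (adjusted p = 1.41e-06).

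**Figure D5:**
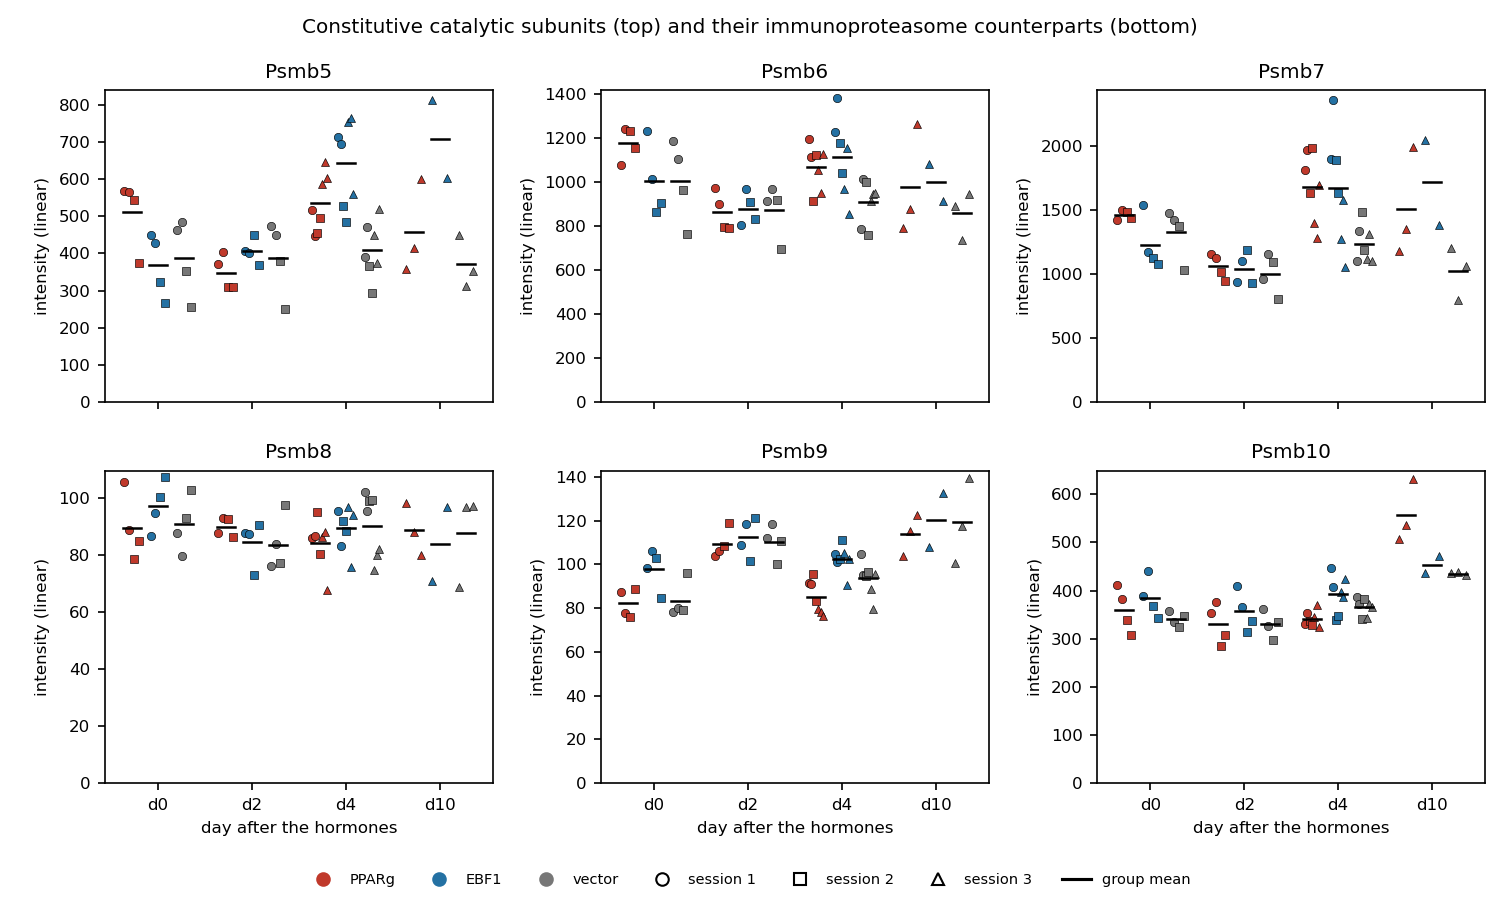
Linear intensity (vertical axes from 0, a scale of their own in each panel) of the constitutive catalytic subunits Psmb5, Psmb6 and Psmb7 and of their counterparts Psmb8, Psmb9 and Psmb10, on each array by day and insert, with bars for group means and marker shapes for sessions. Psmb8 stays between 67.8 and 108 on all arrays, and Psmb10 reaches 506 to 631 on the PPARg arrays of d10.

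The promoters of Psmb8 and Psmb9 are shown beside those of the constitutive genes because these 2 counterparts were too dim to test while the constitutive genes were bright. Both lie on chromosome 17, and the start of Psmb9 is 226 bases from that of Tap1, a peptide transporter gene of the same pathway read in the opposite direction. The stretches are chr17:34198045-34198194 on the plus strand for Psmb8 and chr17:34187331-34187480 on the minus strand for Psmb9, from RefSeq (GRCm38.p6). Capitals mark TTCNNNGAA, the gamma-activated site bound by STAT factors, in Psmb8 and CCAAT on the opposite strand in Psmb9.
Psmb8: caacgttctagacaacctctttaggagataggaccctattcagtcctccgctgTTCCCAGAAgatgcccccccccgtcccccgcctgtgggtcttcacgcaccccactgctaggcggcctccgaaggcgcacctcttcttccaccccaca
Psmb9: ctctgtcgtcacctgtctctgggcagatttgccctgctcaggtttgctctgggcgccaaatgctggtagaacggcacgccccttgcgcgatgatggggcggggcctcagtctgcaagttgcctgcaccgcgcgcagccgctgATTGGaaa

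TTCNNNGAA stood in 2 of the members' 39 windows (Psmb8, Psmd2), 5.13%, against 8.3% of all. The core of the interferon response element, 2 runs of GAAA with any 2 bases between them, stood in 4 of them (Psmb3, Psmd4, Psmd9, Psme1), 10.3%, against 3.44% of all. Both strands were searched, and the letters of these motifs can share bases.

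How alike the members ran over the 12 group means was measured by Pearson's r with the mean of the other core members, as a description; the group means share arrays and sessions. The median r was 0.90 in the alpha ring, 0.78 in the beta ring, 0.85 among the non-ATPase cap subunits and 0.59 among the cap ATPases. It was -0.07 among the chaperones, 0.35 for Psmb10 and 0.38 among the activators.

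Genes that build and regulate the proteasome were listed beside it. Of 13 tested, 3 rose and 1 fell with PPARg at d4, and 4 rose and 1 fell with EBF1, where over all genes 5.95% rose and 1.98% fell with PPARg and 11.4% and 8.16% with EBF1. Usp14 and Uchl5, deubiquitinases of the cap, rose by 0.55 and 0.51 with PPARg and by 0.62 and 0.44 with EBF1. Txnl1, a cap-bound thioredoxin, rose by 0.30 and 0.37, and Psmg1, a core assembly chaperone, by 0.30 with EBF1. Nfe2l2, a regulator of antioxidant genes, fell by 0.26 and 0.24.

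At d4 against d0 in EBF1 cells 6 of these 13 rose and 1 fell, where 16.8% of all genes rose and 17.1% fell. Pomp, which matures the core, rose by 0.40, Psmg1 by 0.62 and Psmg2 by 0.56, and Nfe2l1, the main factor that restores proteasome genes when the proteasome is inhibited, by 0.49. The median fold of the 13 was 0.32, against 0.37 for the members.

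Of 15 tested genes of ubiquitin, its activation and delivery, 2 rose with PPARg (Vcp 0.32, Ubqln1 0.43) and 3 with EBF1 (Vcp 0.23, Ubqln1 0.36, Ube3a 0.54) at d4, and none fell, beside the same shares over all genes. Vcp is the segregase that extracts ubiquitinated proteins, and Ubqln1 a shuttle to the proteasome. The medians were 0.07 and 0.13.

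Of 12 tested genes of antigen presentation and its interferon regulators, 0 passed with PPARg at d4 in limma, while Tapbp (-0.48), B2m (-0.42) and Gbp2 (-0.23) fell with EBF1, where 1.98% and 8.16% of all genes fell. In vector cells 4 of the 12 fell and 0 rose at d2 against d0 (Tapbp -0.90, B2m -0.65, Irf1 -0.39, Gbp2 -0.39). There 9.43% of all genes rose and 12.8% fell. At d4 against d0, 3 fell and 0 rose in vector cells (11.7% of all genes rose and 13.3% fell). In EBF1 cells 5 fell and 0 rose at d4 (16.8% and 17.1%), and in PPARg cells 1 rose and 1 fell (15% and 18.4%). By d10, 3 rose and 0 fell in vector cells against d0 (Gbp2 1.09, B2m 0.50, Tap2 0.27). There 9.3% of all genes rose and 6.16% fell, and Psmb10 rose too. In PPARg against vector at d10, where Psmb10 was also higher, H2-K1 was higher (0.47, adjusted p = 0.00526). B2m was lower there (-0.48, adjusted p = 0.011). In EBF1 against vector at d10, where Psmb10 did not pass, H2-K1 was higher too (0.71, adjusted p = 0.000273).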

How the data were processed

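Total RNA of NIH-3T3 cells was measured on 53 arrays. The deposited table gives, per array, the linear intensity of 12488 probe sets as the authors computed it; the summary algorithm and scaling are not given in the sources used here. No further scaling was applied. Values were floored at the pooled 20th percentile (54.5; log2 5.77), log2 was taken, and 7619 probe sets above the pooled median (158) on at least 2 arrays were tested, without 66 control probe sets. Symbols were read from the platform's annotation, where 10833 probe sets had 1, 396 had several and 1193 had none. Sessions were derived from the dates in the array experiment files, where a long gap between dates started a new session. The files themselves do not name sessions, and a session can hold several dates.

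limma 3.58.1 in R 4.3.3 fitted 1 mean for each of 12 groups with an intensity trend, in 21 comparisons, with p-values adjusted by Benjamini-Hochberg over all probe sets tested and a threshold of 0.05. The fit was tested on simulated data. Alternatives were quantile normalization, another floor, no filter, only the groups compared, session and replicate blocks, each session alone, the mean of a gene's probe sets, and leaving out each array. Members and gene lists were chosen with earlier results of these data known. Values were planned for Psmb5 to Psmb10, Psme1 and the 3 members with the largest called folds per direction and comparison. Not all of them are printed. Those left out include Psmb6 at d10 and the called fall of Psmd10 in vector cells at d4 against d0. Members named beyond these, such as the lists of calls at d4, were chosen after their values were seen.

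Same-numbered arrays of different inserts on the same day deviated with correlations of -0.58 to 0.78 over 52 pairs (median 0.22). Other-numbered arrays of the same session and day had -0.74 to 0.88 over 68 pairs (median 0.076). These wide ranges do not settle whether the numbers mark pairs. The main fit did not treat them as paired, and the replicate block was the alternative. Sequences are from RefSeq tables of GRCm38.p6.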

Additional observations from a re-analysis of the deposited data

Results flagged for a closer look

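Arrays far from the others of their group were looked for among 16 members in 144 groups of 4 to 7 arrays, where chance alone gives about 1 in 20, and 5 were found. PPARg replicate 4 of d0 was the lowest of 4 for Psma5 (1346) and for Psmb5 (373). Vector replicate 4 of d0 was the lowest for Psme1 (241) and the highest for Psmb9 (96.3). EBF1 replicate 3 of d2 was the lowest for Psmb8 (73.0).

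The effect of an insert differed between d10 and d0 by the fit's own test. For PPARg it did so for Psma1 (0.78), and for EBF1 for Psma1 (1.42), Psmb3 (1.00), Psmb5 (1.00), Psmb7 (0.85) and Psme4 (0.72). Psmb5 was at 0.43 (adjusted p = 0.18) when its probe sets were averaged. Days 0 and 10 share no session, and whether session moved insert and vector arrays alike was not tested.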

How the results depend on the processing

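Counts of members called stayed within 1.5 times in all 21 comparisons with a floor at the 40th percentile and with the mean of a gene's probe sets. For single named genes 721 of 864 values kept direction and call, 143 lost the call and none reversed. The cause of the changes below was not tested; fewer arrays remain within 1 session or after leaving one out.

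For PPARg against vector at d0 the count of 0 became 1 with a session block, a replicate block, session 1 alone or session 2 alone. For EBF1 against PPARg at d0 the count of 1 became 6 with a session block, 6 with a replicate block, and 0 with only the groups compared or session 2 alone. At d4 the PPARg count of 9 became 14 with a session block and 3, 0 and 2 in sessions 1, 2 and 3 alone. The EBF1 count of 14 became 7 with only the groups compared, 0 in session 2 and 2 in session 3. EBF1 against PPARg at d4 gave 2 with quantile normalization and 1 with no filter, a session block, a replicate block or session 1 alone. At d10 the PPARg count of 6 became 2 with only the groups compared, and EBF1 against PPARg gave 1 with a session or replicate block.

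For vector cells against d0, the d2 count of 3 was 5 in session 1 and 1 in session 2, the d4 count of 6 was 1 in session 2, and the d10 count of 2 was 5 with quantile normalization and 0 with only the groups compared. For PPARg cells the d4 count of 10 was 2 in session 2, and the d10 count of 5 was 9 with quantile normalization and 10 with a replicate block. For EBF1 cells the d4 count of 23 was 12 in session 2. The difference of PPARg effects (1) was 0 with no filter or only the groups compared and 2 with a session or replicate block, and that of EBF1 effects (5) was 3 with no filter or only the groups compared.

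Leaving out 1 array at a time gave 0 to 1 calls for PPARg against vector at d0, 3 to 9 at d4 and 2 to 6 at d10, and 9 to 15 for EBF1 at d4 and 1 to 6 at d10. EBF1 against PPARg gave 0 to 1 at d0 and at d4. Against d0, vector gave 1 to 5 at d2, 4 to 7 at d4 and 1 to 3 at d10, PPARg 5 to 11 at d4 and 4 to 9 at d10, and EBF1 17 to 25 at d4 and 3 to 11 at d10. Effect differences gave 0 to 1 for PPARg and 1 to 6 for EBF1. Leaving out an EBF1 array of d10 leaves 1, assumed to vary like the other groups. The PPARg count against vector at d0 was 1 without PPARg replicate 1 or 4, and EBF1 against PPARg was 0 at d0 without PPARg replicate 3 and 1 at d4 without EBF1 replicate 3. The d10 count of vector cells against d0 was 1 without vector replicate 3 of either day, and that of PPARg cells was 9 without PPARg replicate 3 of d10. The EBF1 effect count was 2 without vector replicate 1 or 2 of d0 or 2 of d10, and 3 without EBF1 replicate 3 or 4 of d0 or vector replicate 3 of d10. The PPARg effect was not called without vector replicate 2 or 4 or PPARg replicate 3 or 4 of d0, or without vector replicate 1 or 3 or PPARg replicate 2 of d10.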
